A study of Mus musculus with 34 samples.

Results

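Of the 33060 subnucleosome peaks that the authors deposited for the meiotic fraction of SV129 mice, 31983 lie on chromosomes 1 to 19, and 4367 of these (13.7%) are the subject here: open sites kept from meiosis to sperm. They were chosen by measured values. A kept site is a meiotic SV129 peak that overlaps, by at least 1 bp, a peak of C57BL6 meiotic cells, a peak of round spermatids in both strains, and a peak of SV129 sperm. Presence in those 5 lists was the selection and is given as a description only. The sites are compared with 10264 peaks that meet the same 3 lists of meiotic cells and round spermatids but no SV129 sperm peak, called not kept, and with all 31983 meiotic peaks.

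In ATAC-seq the Tn5 transposase cuts and tags DNA that is not covered by nucleosomes, so short fragments pile up at promoters, enhancers and insulators. During spermiogenesis the haploid spermatid stops transcription, replaces most histones first by transition proteins and then by protamines, and packs its genome into a compact sperm nucleus. Some nucleosomes stay in sperm. Gcn5, encoded by Kat2a, is the histone acetyltransferase of the SAGA and ATAC coactivator complexes, and histone acetylation accompanies the removal of histones in elongating spermatids.

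Per the labels, 34 libraries fall into 12 groups, made of 4 stages in 3 backgrounds. The stages are the meiotic fraction (MS), round spermatids (RS), elongating or condensing spermatids (ES) and sperm of the cauda epididymis (Sp). SV129 mice were adults of 8 to 12 weeks whose testis stages had 4 libraries each, technical repeats included (2 for each of 2 biological replicates), and whose sperm had 6. The other mice were C57BL6, either with normal Gcn5 (+/+, called WT) or with homozygous floxed Gcn5 and Stra8-Cre (-/-, called cKO), with 2 libraries in each group. Stra8 is expressed in germ cells around the entry into meiosis. Whether the alleles were lost in every cell was not checked here, and the labels do not say whether WT mice carried the Cre. Each SV129 collection pooled 11 mice, testis fractions were at least 85% pure, and sperm were washed in a buffer that lyses somatic cells. For each group there is 1 subnucleosome list and 1 nucleosome list, without values per library. Subnucleosome lists on chromosomes 1 to 19 held 28935 to 56048 peaks at MS and RS of the strains with intact Gcn5, 10495 in SV129 Sp and 2957 in WT Sp, 15587, 4038 and 1050 in cKO MS, RS and Sp, and 401 to 692 at ES. Read depth is unknown, and depth can change the length of a list. Since every group has a single list, the spread between replicates is not known and no difference was tested; intervals are Wilson 95% intervals, which cover counting error only and take neighbouring peaks as independent.

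The sequences of 8 kept sites at promoters are given as examples, chosen by score, and do not stand for the whole set. They are the bases before the annotated start that lie inside the site, from RefSeq (GRCm38.p6), 5′ to 3′ on the strand of the gene. Capitals mark the pentamer CCAAT read on either strand (ATTGG on the other), the core of the site bound by NF-Y, a factor of housekeeping promoters. The score is a value the authors deposited with each WT and cKO peak, in a unit that the files do not name, and it serves here only to rank or class peaks within 1 list. The first 4 have the highest WT Sp scores among sites at gene ends for which the promoter table holds at least 60 such bases: Prr14l (chr5:32854293-32854456, minus strand), Spout1 (chr2:30178460-30178693, minus), Nudt21 (chr8:94037040-94037272, minus) and Osbp (chr19:11965594-11965823, plus). The other 4 have the highest cKO Sp scores among sites at gene ends that lie in every list outside ES and in no ES list: Mfsd8 (chr3:40846855-40846921, minus), Ppp2r1a (chr17:20945204-20945436, plus), Selenof (chr3:144570177-144570426, plus) and Pcf11 (chr7:92669913-92670162, minus).
Prr14l: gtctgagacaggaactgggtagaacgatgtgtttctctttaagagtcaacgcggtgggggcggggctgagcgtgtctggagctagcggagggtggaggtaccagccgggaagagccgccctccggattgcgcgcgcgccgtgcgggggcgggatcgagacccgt
Spout1: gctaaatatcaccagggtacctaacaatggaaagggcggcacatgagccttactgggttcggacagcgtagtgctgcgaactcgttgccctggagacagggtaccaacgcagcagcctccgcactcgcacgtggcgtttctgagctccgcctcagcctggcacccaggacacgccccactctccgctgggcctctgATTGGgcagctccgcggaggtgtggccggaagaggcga
Nudt21: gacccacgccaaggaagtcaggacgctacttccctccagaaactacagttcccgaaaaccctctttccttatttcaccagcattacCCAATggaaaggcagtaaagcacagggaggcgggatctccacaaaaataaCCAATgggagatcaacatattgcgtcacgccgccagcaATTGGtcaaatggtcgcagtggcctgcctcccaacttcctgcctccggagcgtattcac
Osbp: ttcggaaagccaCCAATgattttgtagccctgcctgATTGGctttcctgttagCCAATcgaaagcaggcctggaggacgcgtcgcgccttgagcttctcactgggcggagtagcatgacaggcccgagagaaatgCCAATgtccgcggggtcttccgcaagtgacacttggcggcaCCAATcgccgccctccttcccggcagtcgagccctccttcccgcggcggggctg
Mfsd8: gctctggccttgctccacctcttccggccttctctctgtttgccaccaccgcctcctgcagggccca
Ppp2r1a: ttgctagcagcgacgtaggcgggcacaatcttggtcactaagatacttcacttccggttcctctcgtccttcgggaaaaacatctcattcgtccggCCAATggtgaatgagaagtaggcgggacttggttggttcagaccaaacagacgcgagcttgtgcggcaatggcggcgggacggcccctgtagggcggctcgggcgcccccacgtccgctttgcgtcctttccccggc
Selenof: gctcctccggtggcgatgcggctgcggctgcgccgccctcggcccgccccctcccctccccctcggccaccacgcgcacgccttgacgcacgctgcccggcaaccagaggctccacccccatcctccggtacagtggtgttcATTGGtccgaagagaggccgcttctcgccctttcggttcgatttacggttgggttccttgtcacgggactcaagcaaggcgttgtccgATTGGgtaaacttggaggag
Pcf11: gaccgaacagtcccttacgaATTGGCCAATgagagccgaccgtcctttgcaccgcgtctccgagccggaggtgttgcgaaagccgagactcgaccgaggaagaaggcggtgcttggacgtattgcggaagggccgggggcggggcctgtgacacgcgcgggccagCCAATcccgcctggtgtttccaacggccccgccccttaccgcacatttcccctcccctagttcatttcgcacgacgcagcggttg
Of these 8 stretches, 6 hold CCAAT, from 1 copy at Spout1 and Ppp2r1a to 5 at Osbp, and the WT Sp peak holds all 3 copies at Nudt21, all 5 at Osbp, the single copies at Spout1 and Ppp2r1a, 2 of 3 at Pcf11 and 1 of 2 at Selenof. At Prr14l and Mfsd8 these letters are not in the stretch shown. Among promoter windows of 300 bases, CCAAT occurred in 52.4% of kept, 35.6% of not kept and 39.1% of all windows.

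The sperm list of the second strain had no part in the selection. WT Sp peaks met 1466 of the 4367 kept sites, 33.6% (32.2 to 35.0%), against 314 of 10264 sites not kept, 3.06% (2.74 to 3.41%), and 5.99% of all meiotic peaks. By the selection, SV129 Sp peaks met every kept site, against 15.2% of all meiotic peaks, from which nothing is read. With only the WT peaks at or above the median score of their lists, WT Sp met 20% of the sites then kept. The larger part of the kept sites, 2901, had no WT Sp peak. WT Sp had 2957 peaks in all, and 1480 of them (50.1%) lay at kept sites.

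The promoter of Nudt21, which encodes a subunit of the cleavage factor that sets 3′ ends of mRNAs, and its divergent neighbour Ogfod1 share 1 kept site of 308 bp (chr8:94036965-94037272). Its peaks covered 295 bp of it in SV129 RS, 246 bp in SV129 Sp, 308 bp in WT MS, 308 bp in WT RS, 221 bp in WT Sp, 280 bp in cKO MS, 117 bp in cKO RS and 204 bp in cKO Sp, and 0 bp in the 3 ES lists. The site was thus present at every stage but ES in all 3 backgrounds. Osbp, the oxysterol-binding protein, has a site of 592 bp (chr19:11965232-11965823), of which 521 bp were covered in SV129 RS, 348 bp in SV129 Sp, 573 bp in WT MS, 568 bp in WT RS, 362 bp in WT Sp, 492 bp in cKO MS, 286 bp in cKO RS and 0 bp in cKO Sp. Prr14l (chr5:32854293-32854456) had 164 bp covered in SV129 RS, 92 bp in SV129 Sp, 128 bp in WT Sp and 0 bp in every cKO list. These 3 sites thus differed in cKO: a peak at MS, RS and Sp, at MS and RS only, or at no stage. The highest WT Sp score at a gene end, 31.3, was at a site of 199 bp near an end of Gm32584 (chr5:36630556-36630754), which unlike the others had a peak in all 12 lists, ES included, with 140 bp under WT Sp and 194 bp under cKO Sp. Other sites at gene ends among the 10 with the highest WT Sp score were those of Eef1g, a translation elongation factor subunit (230 bp covered in WT Sp and 0 bp in cKO Sp), Max, the dimerization partner of Myc (226 bp and 0 bp), Tomm7 of the mitochondrial import pore (140 bp and 0 bp), Ppp3ca, the catalytic subunit of calcineurin (98 bp and 0 bp), and Tars, the threonyl-tRNA synthetase (207 bp and 162 bp).

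**Figure D1:**
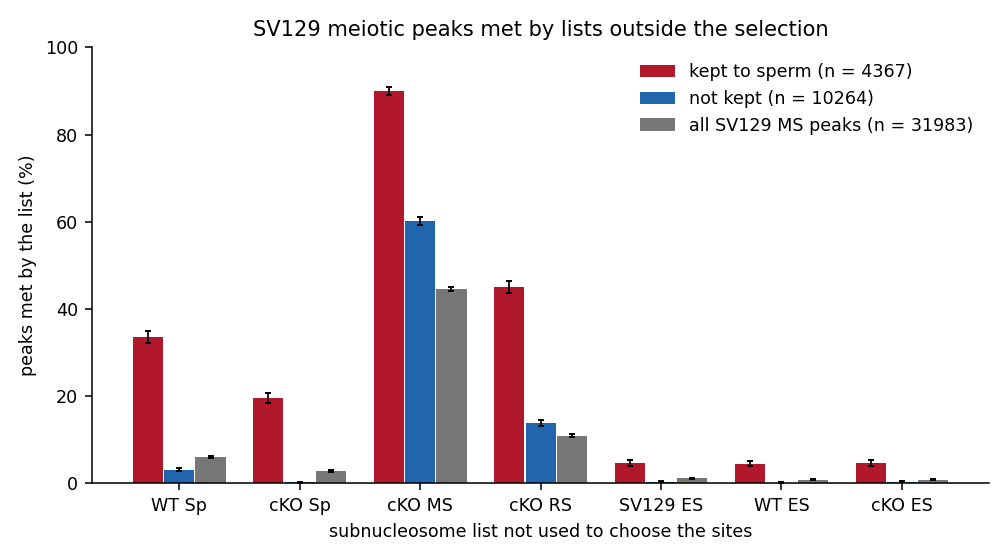
Share of SV129 meiotic peaks met by each subnucleosome list that was not used for the selection (x axis: list; y axis: percent of peaks met), for kept sites, sites not kept and all meiotic peaks on chromosomes 1 to 19; error bars are Wilson 95% intervals. Kept sites were met more often in each of the 7 lists, 33.6% against 3.06% for WT Sp and 19.6% against 0.205% for cKO Sp.

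In cKO most kept sites had a peak in the meiotic list, fewer had one in round spermatids, fewer again in sperm and fewest in elongating spermatids (4.58%). cKO MS peaks met 3927 kept sites, 89.9% (89.0 to 90.8%), against 60.2% of sites not kept and 44.5% of all meiotic peaks. cKO RS peaks met 1967, 45.0% (43.6 to 46.5%), against 13.8% and 10.9%. cKO Sp peaks met 857, 19.6% (18.5 to 20.8%), against 21 of 10264 sites not kept, 0.205%, and 2.85% of all meiotic peaks. WT RS was part of the selection, so the 45.0% in cKO RS has no share in WT RS to be set against, while 33.6% in WT Sp and 19.6% in cKO Sp were both outside it. The cKO lists were shorter than the WT lists at MS, RS and Sp, and whether loss of sites or lower depth shortened them cannot be told apart from these lists.

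The few peaks of cKO sperm lay largely at kept sites. Of the 1050 peaks of cKO Sp on these chromosomes 870 met a kept site, 82.9% (80.5 to 85.0%), against 50.1% in WT Sp, 42.3% in SV129 Sp (used for the selection), 49.5% in cKO RS and 26.2% in cKO MS. Of the 870 peaks, 693 met a kept site without an ES peak, as did 1305 of the 1480 in WT Sp. These lists differ in length, and the part of length in these shares was not tested. Of the kept sites, 481 were met in both WT Sp and cKO Sp, 985 in WT Sp and not in cKO Sp, 376 in cKO Sp and not in WT Sp, and 2525 in neither. A WT Sp peak and a cKO Sp peak tended to fall at the same sites: 32.8% of kept sites with a WT Sp peak had a cKO Sp peak (30.5 to 35.3%), against 13.0% of kept sites without one (11.8 to 14.2%). Without the 213 kept sites that had an ES peak the shares were 24.4% and 12.7%. Within cKO, 2007 sites had an MS peak and no RS peak and 47 the reverse. Of the 857 sites with a cKO Sp peak, 30 had no cKO MS peak and 265 had no cKO RS peak. In no cKO list at all were 365 sites, 8.36%.

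Kept sites were wider than the others, and the shares were therefore compared within classes of width and score, classes of score being chosen after the widths were seen. Their median width was 304 bp (quartiles 222 and 403 bp), against 176 bp for sites not kept and 148 bp for all meiotic peaks. Among meiotic peaks wider than 191 bp, the upper of 3 width classes, WT Sp met 35.1% of kept and 4.66% of not kept sites, cKO RS met 49.5% and 20%, and cKO Sp met 20.2% and 0.403%. In the narrowest class, up to 114 bp, WT Sp met 33.3% of 165 kept and 1.74% of 2126 not kept sites; without sites that had an ES peak it met 19.5% of 123. In each of these classes a sperm peak was the more frequent at kept sites. The WT MS peaks at these sites carry a deposited score, and sites were divided at its quartiles, 24.1, 36.2 and 50.1. From the lowest to the highest class the share of kept sites with a WT Sp peak was 24.5%, 26.5%, 30.7% and 40.4%, against 1.56%, 3.05%, 3.73% and 4.94% of sites not kept. For cKO MS the shares converged: 50.4%, 79.9%, 94.3% and 99.2% of kept sites, against 26%, 59.0%, 82.1% and 96.1%. For cKO RS they were 18.7%, 26.7%, 40.6% and 61.4%, against 9.49%, 10.3%, 15.3% and 25.3%. For cKO Sp they were 16.9%, 12.3%, 16.9% and 25.2%, against 0.061%, 0.176%, 0.212% and 0.505%. Without kept sites that had an ES peak, WT Sp met 18.6%, 23.1%, 29.6% and 38% of kept sites. cKO Sp then met 6.94%, 8.19%, 15.3% and 22.2%. cKO RS then met 12.3% of kept sites in the lowest class (9.13 to 16.4%), an interval that includes the 9.49% of sites not kept. In cKO MS the sets thus came close to each other at high scores, and in cKO RS and the sperm lists they did not at those scores. At 99.2% and 96.1% the cKO MS shares leave little room for a gap. The sets were split by a SV129 Sp peak, so the selection itself favours a gap in the other sperm lists.

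Kept sites were mostly promoters. The centre of 3327 of them (76.2%, 74.9 to 77.4%) lay within 500 bp of an end of a protein-coding gene, against 35.0% of sites not kept and 30.8% of all meiotic peaks. Another 653 lay elsewhere in a gene body and 387 (8.86%) outside genes, against 35.9% of sites not kept outside genes. Where the promoter table gives the strand, 3102 of 4233 kept sites (73.3%) were within 500 bp of an annotated start, and 12 were near a 3′ end and no start. The centre lay a median 50 bp upstream of the start (quartiles 109 bp upstream and 2 bp downstream), and 74.3% of the centres were upstream. Of the kept sites at a start, 12.8% (11.7 to 14.1%) lay at a pair of starts within 1000 bp that point away from each other, against 9.52% (8.57 to 10.6%) of sites not kept. WT Sp met 32.7% of kept sites at gene ends, 30.3% in gene bodies and 46.8% outside genes, and cKO Sp met 17.3%, 19.6% and 39.8%. The high values outside genes came with the sites that had an ES peak: without them WT Sp met 23.7% and cKO Sp 10.8% of 241 sites outside genes.

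**Figure D2:**
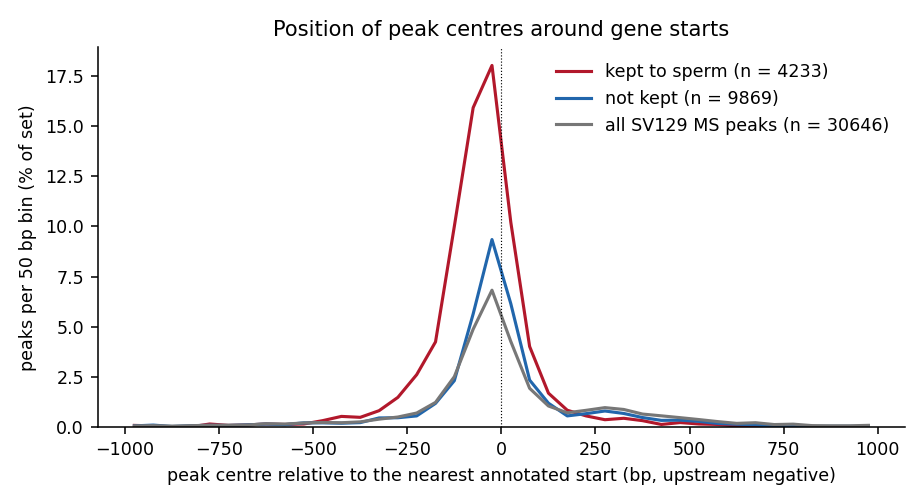
Centres of SV129 meiotic peaks by distance to the nearest annotated start of a protein-coding gene (x axis, bp, upstream negative; y axis, percent of each set per 50 bp bin). Kept sites peak in the bin from 50 bp upstream to the start, which holds 18% of them.

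A large group of genes had a kept site. At least 1 kept site overlapped the 500 bp around an end of 3903 of 20661 protein-coding genes, 18.9%, where 46.0% had any SV129 meiotic peak, so that 41.1% of genes with a meiotic peak had a kept site. Of the genes 1321 had a kept site met by WT Sp, 699 one met by cKO Sp and 347 one met by both. By comparison 4.28% of 12408 lncRNA genes, 6.65% of 391 tRNA genes and 0.281% of 8884 pseudogenes had a kept site.

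Genes of basic cell functions had a kept site in 37.2% to 50.8%, against 18.9% of all genes. Most of these genes have a meiotic peak, and among those that do the shares were 43.9% to 60%, against 41.1% of all genes with a meiotic peak. The interval lay above 41.1% only for splicing and RNA binding (46.8 to 71.9%) and the respiratory chain (44.2 to 64.7%). In the other lists of this paragraph it included that value. Kept sites lay at 33 of 65 genes for splicing and RNA binding (50.8%), 16 of 34 for ubiquitin conjugation, 47 of 102 for the respiratory chain, 24 of 53 for translation initiation (which includes the Eif2ak kinases by name), 32 of 77 for cytosolic ribosomal proteins, 20 of 50 for the proteasome and 29 of 78 for mitochondrial ribosomal proteins. Values for single genes are the bases under peaks within 500 bp of the gene's ends. Hnrnpc, which binds nascent transcripts, had 442 bp under SV129 Sp peaks, 357 bp under WT Sp and 181 bp under cKO Sp peaks. Uqcrq, a subunit of respiratory complex III, had 304, 384 and 163 bp in the same order. Atp5g1 of the ATP synthase had 332 and 503 bp and none in cKO Sp, and so had Rps19 with 376 and 161 bp. Mrps14 of the mitochondrial ribosome showed a different pattern, with 347 bp in SV129 Sp, none in WT Sp and 291 bp in cKO Sp. Mrpl47 and Ndufb5 share 1 site between their starts, with 352 bp in SV129 Sp and none in WT or cKO Sp.

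Meiosis genes mostly had a meiotic peak and were seldom kept. Of 35 meiosis genes 29 had a meiotic peak and 4 a kept site, 13.8% of those 29 (5.50 to 30.6%), against the 41.1% of all genes with a meiotic peak. Among them were Prdm9, which places recombination hotspots (230 bp in SV129 Sp, 0 bp in WT Sp and 104 bp in cKO Sp), and Msh5, which acts in crossover formation (75, 0 and 0 bp). Of 48 spermatid genes 26 had a meiotic peak and 6 a kept site, 23.1% of the 26 (11.0 to 42.1%, an interval that includes the 41.1% of all genes), among them Rfx2 and Crem, transcription factors of the spermatid programme, Gapdhs of sperm glycolysis and Tekt5 of the flagellum. None of 6 meiotic marker genes (Sycp1, Sycp3, Hormad1, Spo11, Piwil1 and Mybl1) had a peak in any of the 3 sperm lists, and 5 had one in SV129 MS. Of all 20661 protein-coding genes, 4569 had a peak in SV129 Sp, 1746 in WT Sp and 729 in cKO Sp. With 6 genes, none cannot be told apart from these shares. Of 6 round spermatid markers all had a peak in SV129 RS and 1, Tssk6, a kept site (62 bp in SV129 Sp and 137 bp in WT Sp, the latter beside the kept site). Zinc finger genes of the Zfp family had a kept site at 99 of 388 (25.5%), and 39.1% of those with a meiotic peak did.

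Genes of embryonic development were nearly absent from the set. No kept site lay at 39 Hox genes, 62 developmental transcription factor genes, 27 imprinted genes or 109 keratin genes, which allows shares of up to 8.97%, 5.83%, 12.5% and 3.40% by the Wilson upper bound, and of 24 pluripotency and early embryo genes only Klf5 had one (311 bp in SV129 Sp, 189 bp in WT Sp and 152 bp in cKO Sp). These genes also had few meiotic peaks, from 3.67% of the keratins to 37.0% of the imprinted genes, so that few could be kept. Among those with a meiotic peak, none of 10 imprinted genes (upper bound 27.8%) and none of 8 developmental factors (32.4%) was kept. Both bounds lie below the 41.1% of all genes with a meiotic peak. For Hox genes and keratins, with 4 such genes each, the upper bound was 49%, and for pluripotency genes the share was 25% of 4 (4.56 to 69.9%). Of 1458 olfactory and vomeronasal receptor genes 8 had a meiotic peak and 2 a kept site, Vmn1r4 and Vmn2r29. Of genes for SAGA and ATAC, the complexes of Gcn5 itself, 13 of 30 had a kept site, and 48.1% of the 27 with a meiotic peak (30.7 to 66.0%), against 41.1% of all genes with one. Among them were Usp22, the deubiquitinase of SAGA (420, 262 and 0 bp in SV129, WT and cKO Sp), and Eny2 of the same module (291, 0 and 210 bp). Of 13 CTCF and cohesin genes 9 had a meiotic peak and 1 a kept site, Pds5b. Markers of other cells the samples could hold were looked for in the sperm lists themselves, since only 2 of 11 Sertoli and Leydig genes and none of 11 epididymal and 10 blood genes had a meiotic peak and could have a kept site. In the 3 sperm lists 1 of the 11 Sertoli and Leydig genes had a peak in SV129 and in WT, 1 of the 11 epididymal genes had one in SV129, and none of the 10 blood genes had one. Of all 20661 protein-coding genes, 4569 had a peak in SV129 Sp, 1746 in WT Sp and 729 in cKO Sp. Counts from lists this short cannot show whether other cells were present or absent.

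Of 12 letter strings searched on both strands, CCAAT differed most in percentage points between kept and not kept promoters, and it was singled out after the values were seen. Promoter windows of 300 bases, 250 before the start to 50 after it, were at hand for 16456 genes, of which 3165 overlapped a kept site and 2848 a site not kept only. CCAAT on either strand occurred in 52.4% of kept windows (50.6 to 54.1%), against 35.6% of not kept windows (33.8 to 37.3%) and 39.1% of all. Among kept windows it occurred in 60% of those whose site had a WT Sp peak (57.0 to 62.9%) and in 48.5% of the others (46.3 to 50.6%). The share of kept windows with a WT Sp peak grew with the number of copies, from 28.3% of 1508 windows with no CCAAT to 32.6% with 1 copy, 40.5% with 2 and 48.2% of 386 windows with 3 or more. Base composition differed little: the median GC content was 62.7% in kept and 61.3% in not kept windows, with a median of 24 and 23 CpGs. Among windows with more than 21 CpGs, CCAAT occurred in 48.0% of kept and 30.1% of not kept windows. Among windows at meiotic peaks wider than 191 bp it occurred in 54.2% and 37.8%. In the middle width class it occurred in 40% of 300 kept (34.6 to 45.6%) and 31.9% of 737 not kept windows (28.6 to 35.3%). At peaks up to 114 bp the shares were 22.6% of 53 kept (13.5 to 35.5%) and 29.9% of 254 not kept windows (24.6 to 35.8%). These last intervals overlap widely, so no order is shown in that class. The letters of CCAAT in other orders, added as a comparison after these values were seen, were not more frequent in kept windows: TAACC occurred in 21.6% of kept and 22.8% of not kept windows, and AACCT was less frequent in kept windows, 33.2% (31.6 to 34.9%) against 37.3% (35.6 to 39.1%).

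CCAAT also lay under the part of the site that was open in sperm. At 1066 kept promoters with a WT Sp peak, that peak covered 58.2% of the bases of the site that lie in the window but held 945 of the 1292 CCAAT copies there, 73.1% (70.7 to 75.5%). The cKO Sp peaks covered 51.3% of such bases and held 65.6% of CCAAT copies (62.1 to 68.9%). CCAAT was thus more often inside the sperm peak than the bases of these sites, and in cKO Sp and SV129 Sp it was not alone in this. The bases were not matched to CCAAT by distance from the start, and the part of position was not tested. The NRF1 core (GCGCATGC) had 69.2% of 78 copies inside the cKO Sp peak (58.3 to 78.4%) and the cAMP response element (TGACGTCA) 80% of 15 (54.8 to 93.0%). In WT Sp they had 66.7% of 105 (57.2 to 75%) and 65.2% of 46 (50.8 to 77.3%), intervals that include the 58.2% of bases. TAACC had 63.1% (56.5 to 69.3%) and 57.3% (48.2 to 65.9%), which also include the share of bases. GC boxes (GGGCGG) were placed as the bases were, with 58.5% inside the WT Sp peak and 50.2% inside the cKO Sp peak, and so was AACCT with 59.0% and 50%. The core of YY1 (AAGATGGC) lay inside the cKO Sp peak less often than the bases, with 6 of 32 copies (18.8%, 8.89 to 35.3%). In WT Sp it had 37 of 78 inside (47.4%, 36.7 to 58.4%), an interval that includes the 58.2% of bases. SV129 Sp, used for the selection, covered 64.5% of bases at 3165 promoters and held 83.5% of CCAAT copies (82.1 to 84.8%). There the GC box (67.3%, 65.9 to 68.6%) and ETS site (70.9%, 67.9 to 73.8%) also exceeded the bases. So did the CTCF core (70.4%), E-box (71.5%), NRF1 core (73.5%) and cAMP response element (78.2%), while the YY1 core was lower (43.3%). TAACC (63.7%) and AACCT (61.5%) had intervals that include the bases. Copies of CCAAT lay a median 81 bp upstream of the start in kept windows and 80 bp in not kept windows. GC boxes were also more frequent in kept windows (75.5% against 63.9%), but with no gap between kept windows with a WT Sp peak (76.5%) and without (75.1%). ETS sites (CCGGAAG) occurred in 25.3% of kept and 24.8% of not kept windows, and the E-box CACGTG in 11.3% and 12.2%. A match is a string of letters, not a bound site.

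**Figure D3:**
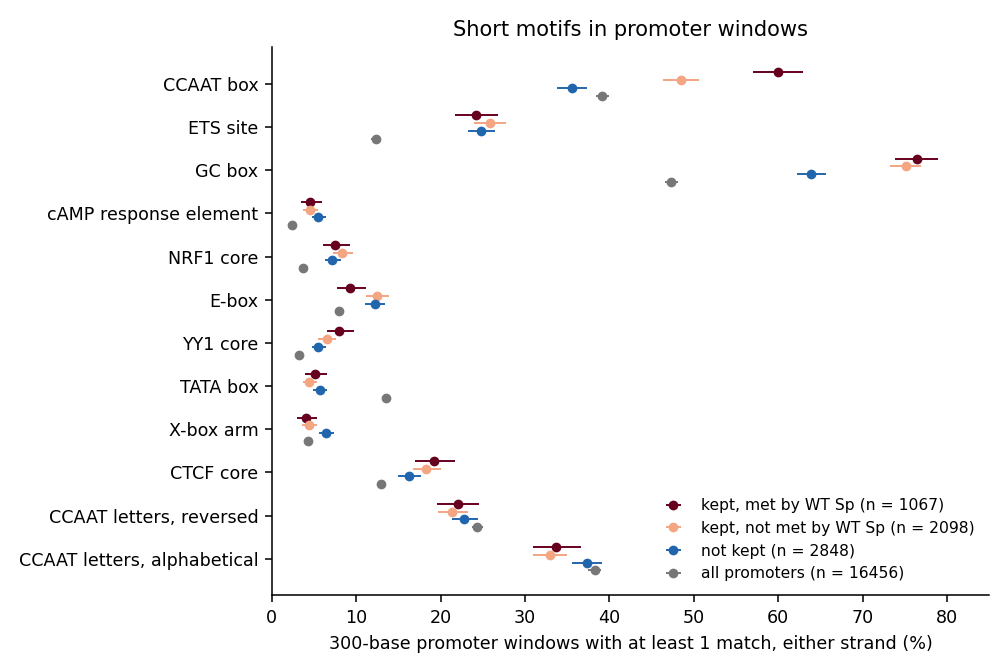
Share of 300-base promoter windows with at least 1 match on either strand (x axis, percent) for 12 short strings (y axis), in kept windows with and without a WT Sp peak, not kept windows and all windows; lines are Wilson 95% intervals. CCAAT runs from 35.6% in not kept to 60% in kept windows with a WT Sp peak, while its letters in other orders were no more frequent in kept than in not kept windows (21.6% and 22.8% for TAACC, 33.2% and 37.3% for AACCT).

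The peaks narrowed from testis to sperm. At 226 kept sites that lay in all 9 lists outside ES and in no ES list, the median peak width was 423 bp in SV129 MS, 394.5 bp in SV129 RS and 270 bp in SV129 Sp, and 498.5, 491 and 193 bp in WT. In cKO it was 332.5 bp at MS, 163 bp at RS and 160.5 bp at Sp. In cKO the narrowing was therefore already seen in round spermatids, where the lower quartile of WT (409 bp) lay above the upper quartile of cKO (213.8 bp). Over all kept sites the SV129 Sp peak covered a median 55.7% of the site and the WT Sp peak a median 50%. Peak width depends on depth, which is unknown for these lists, and its part in the difference was not tested.

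**Figure D4:**
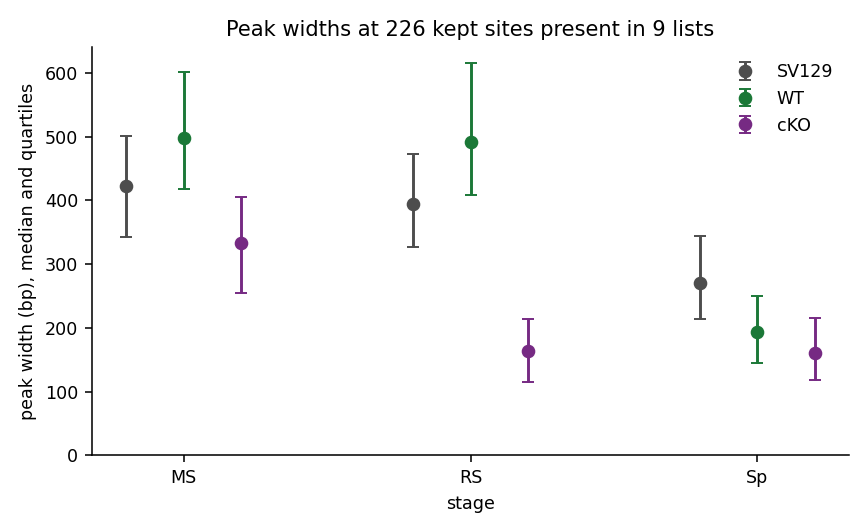
Width of the peak that meets each of 226 kept sites present in 9 lists (y axis, bp, from 0) by stage (x axis) and background (colour); points are medians over sites and bars run from the lower to the upper quartile. Widths fall between RS and Sp in SV129 and WT, and between MS and RS in cKO.

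Nucleosome calls, which are 150 bp wide and were not used for the selection, met kept sites at levels that differed between backgrounds, most at RS and Sp. At MS the share was already lower in cKO. Kept sites were met by a call in 91.4% at SV129 MS, 85.9% at RS, 27.3% at ES and 19.5% at Sp, in WT in 93.6%, 88.8%, 26% and 8.52%, and in cKO in 82.1%, 43.8%, 31.9% and 52.5%. Of all meiotic peaks 57.6%, 40.0%, 14.3% and 4.94% were met in SV129, 61.8%, 47.2%, 13.0% and 2.91% in WT, and 47.4%, 17.6%, 14.8% and 17.2% in cKO, in the same order. Kept sites were above these values in all 12 lists, but they were also wider, and a wider site meets a call more easily. In a window of fixed size, within 100 bp of the centre, kept sites also held more calls than sites not kept in all 12 lists. Per 1000 sites and 50 bp the values were 709 against 292 in SV129 MS and 660 against 396 in WT RS. In SV129 MS 12392 calls were centred there at 4367 kept sites, so calls of 150 bp overlap each other at many sites. More calls therefore need not mean more nucleosomes. Whether the number of calls follows read coverage at open sites was not tested. The sperm lists differed in length: 13615 calls in SV129 Sp, 8628 in WT Sp and 347951 in cKO Sp. Relative to its length the cKO list had the fewest calls of the 3 sperm lists near kept sites: 2.33% of its calls on chromosomes 1 to 19 had their centre within 300 bp of the centre of a kept site, against 16.7% in WT Sp and 20.1% in SV129 Sp. Without the kept sites that an ES peak met, the shares were 2.09%, 8.17% and 13.9%. Around those 4154 sites WT sperm calls flanked the site, with 6.50 calls per 1000 sites and 50 bp within 100 bp of the centre and 14.4 from 100 to 300 bp. In cKO Sp the values were 121 and 157, and in SV129 Sp 34.2 and 33.9. At MS the centre held 725 calls in SV129, 643 in WT and 348 in cKO, from lists of 199111, 329678 and 316843 calls. At RS it held 600 in SV129, 670 in WT and 88.2 in cKO, from lists of 230591, 253621 and 207681 calls. The selection required SV129 and WT peaks at MS and RS and did not ask for a cKO peak. Of these 4154 sites 43.3% had a cKO RS peak. This can favour SV129 and WT here, and its part was not tested.

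**Figure D5:**
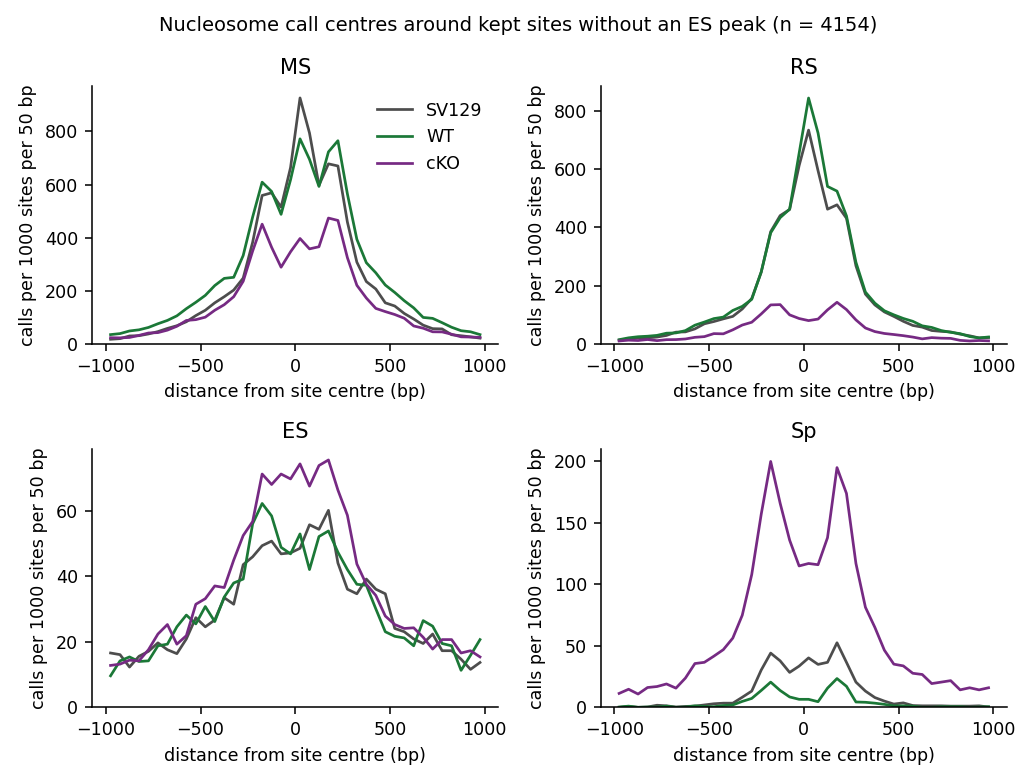
Centres of nucleosome calls around 4154 kept sites without an ES peak (x axis, bp from the site centre; y axis, calls per 1000 sites per 50 bp, scaled for each stage separately), by stage (panels) and background (colour). In MS the centre holds 725 calls in SV129, 643 in WT and 348 in cKO. In RS the centre is high in SV129 and WT (600 and 670) and low in cKO (88.2), and in Sp the cKO calls exceed the others on both sides of the site and at its centre.

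Elongating spermatids had peaks at few of these sites. SV129 ES peaks met 200 kept sites (4.58%), WT ES peaks 194 (4.44%) and cKO ES peaks 200 (4.58%), against 1.18%, 0.816% and 0.850% of all meiotic peaks. Together the ES lists met 213 kept sites, and 185 of them lay in all 3 lists. Sites that were open in sperm were thus mostly not in the peak list of the stage before it, whose lists held 401 to 692 peaks in all.

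The sites with an ES peak stood apart from the rest. Only 2 of the 185 sites in all 3 ES lists were at a gene end (1.08%) and 156 were over 10000 bp from any (84.3%), against 79.8% at a gene end among the 4154 without an ES peak. WT Sp met 87.6% and cKO Sp 91.9% of the 185. Their peak edges hardly moved between lists: the larger shift of an edge from SV129 MS to SV129 Sp had a median of 26 bp, against 108 bp for sites without an ES peak, and the SV129 Sp peak covered a median 98.6% of the site against 54.4%. Of the 213 sites, 63 had another within 1000 bp and 32 lay within 200000 bp of the first position of their chromosome in any list, against 5 of the 4154. The highest WT Sp score, 218, was at chr6:103649059-103649306 inside Chl1, where the cKO Sp score was 212 and the WT MS score 212, and where each list covered 210 to 248 of 248 bp. The widest kept site, chr1:24611574-24616143 of 4570 bp and 25937 bp from the nearest gene end, was covered for 3973 bp in WT Sp, 4217 bp in cKO Sp and 4058 to 4448 bp in the ES lists. Whether these sequences occur more than once in the genome was not analysed here. Without the 213 sites WT Sp met 31.2% of the kept sites, cKO MS 90.0%, cKO RS 43.3% and cKO Sp 16.3%, and of the sites with a cKO Sp peak 46.6% also had a WT Sp peak in place of 56.1%. Of the kept sites over 10000 bp from any gene end, the 10 with the highest WT Sp scores all had a peak in every ES list. The first 3 such distant sites without an ES peak, named after their values were seen, were chr9:96759176-96759322 (27574 bp from Zbtb38, WT Sp score 18 and no cKO Sp peak), a site inside Arhgap26 (score 17.9, with 151 bp under cKO Sp) and chr7:38084809-38085335 (12912 bp from Ccne1, score 14.5, with 208 bp under cKO Sp).

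The limit between kept and not kept was narrow for few sites. The overlap with the SV129 Sp peak was under 50 bp at 68 kept sites (1.56%), and its median was 153 bp. It was smallest in Nos3, near the end of Atg9b (3 bp), in Rad52 (4 bp), and at Sipa1l3 (7 bp), Ube3a (8 bp) and Fhad1 (9 bp), and none of these 5 sites had a WT Sp or cKO Sp peak. On the other side 236 sites not kept (2.30%) lay within 200 bp of a SV129 Sp peak, the nearest of them at Trib1 (0 bp), Mlxip (1 bp), Fbrs (3 bp), Pm20d2 (11 bp) and Fbxl21 (12 bp). Kept sites made up from 7.42% of the meiotic peaks of chromosome 19 to 18.2% of those of chromosome 2.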

How the data were processed

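ATAC-seq of paired-end libraries was deposited as 24 peak lists, 1 subnucleosome and 1 nucleosome list for each of 12 groups. The labels' protocols give tagmentation of 100000 or 200000 cells with 2.5 and 5 units of Tn5 and 12 cycles of PCR. STAR 2.5.2a, MACS2 2.1.0.20140616 and the builds GRCm38 and mm10 are named in the submitters' processing notes, with no role. How replicates were combined, the fragment lengths behind each class and any shift of reads are not given in the sources used here. The lists hold positions and a score; the authors deposited a score with each WT and cKO peak (3.01 or more), whose unit no header states, and 0 for SV129 peaks. Names of WT and cKO peaks carry 1 library number, 1 at MS, RS and ES and 2 at Sp, so each list may rest on 1 library.

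Overlaps of at least 1 bp, distances and counts were computed with numpy 2.4.6 and pandas 2.3.3 in python 3.11.15 and tested on simulated lists. Shares carry Wilson intervals (scipy 1.17.1). There is 1 list per group, and no test over samples could be made. Gene ends, and promoter windows for 16456 of 20661 protein-coding genes, come from RefSeq (GRCm38.p6); chromosome 18 has no windows. A gene had a site when it overlapped 500 bp around either end.

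The 4367 sites and the lists of genes and markers were chosen with earlier results of these data known. Named were the 10 sites at gene ends and the 10 over 10000 bp away with the highest WT Sp score, 10 sites with an ES peak, the 5 widest, up to 4 genes of each list with the most bases under SV129 Sp peaks, the 5 on each side of the selection limit, and those with the highest cKO Sp score in all sperm lists. Chosen after the data were seen were the 12 letter strings, the classes of score, the set without ES peaks, and the further sites named from it. No genome was at hand, so sequences come from promoter windows in place of the centres of sites. Alternatives changed the overlap, the score of WT peaks, the joining of neighbours, the anchoring list, the distance to gene ends and the chromosomes. Values of some genes that this rule names are not reported here.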

Additional observations from a re-analysis of the deposited data

Results flagged for a closer look

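The sex chromosomes lie outside the 4367 sites, and some of their meiotic peaks met the same 4 lists. On chromosome X 51 of 944 SV129 meiotic peaks did, 5.40% (4.13 to 7.03%, Wilson), against 13.7% on chromosomes 1 to 19. Of these 51 sites 47 had a cKO MS peak, 7 a cKO RS peak, 7 a WT Sp peak, 5 a cKO Sp peak and 6 an ES peak. On chromosome Y 6 of 57 meiotic peaks met the lists, and all 6 had a WT Sp, a cKO Sp and an ES peak.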

How the results depend on the processing

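Under the 5 other settings that change the selection (overlaps, WT scores, joining, anchor) the number of kept sites ran from 3960 to 4409. An overlap of at least 50 bp left shares met by subnucleosome peaks within counting error, but nucleosome calls at MS, RS, ES and Sp met 84.9%, 79.5%, 23.5% and 15.2% of sites in SV129, 88.4%, 85.7%, 21.3% and 6.23% in WT, and 72.6%, 35.9%, 27.3% and 43.1% in cKO. With an overlap of at least 50% of the shorter interval these were 82.1%, 76.5%, 21.1% and 13.3%, 85.8%, 84.1%, 19.3% and 5.42%, and 65.7%, 31.3%, 25% and 38.0%. With WT peaks of upper scores only (at or above the list's median), WT Sp met 20% in place of 33.6%, cKO MS 93.5%, cKO RS 48.2%, and SV129, WT and cKO ES 3.43%, 3.18% and 3.69%, gene ends held 78.7%, the median width was 314 bp, and nucleosome calls met 94.2% (SV129 MS), 88.6% (SV129 RS), 96.1% (WT MS), 92.0% (WT RS) and 85.0% (cKO MS). The median width was 311 bp with neighbours joined and 166 bp with SV129 Sp peaks as the anchor. Gene ends held 69.5% at 250 bp and 80.3% at 1000 bp. Leaving out the chromosome with the most kept sites moved neither result computed. Without the 213 sites with an ES peak, an alternative chosen after seeing the data, WT Sp met 31.2%, cKO RS 43.3% and cKO Sp 16.3%, gene ends held 79.8%, and nucleosome calls met 93.0%, 87.1%, 25.2% and 17.3% in SV129 (MS, RS, ES, Sp), 94.9%, 90.3%, 23.6% and 6.48% in WT, and 83.4% at MS and 30.2% at ES in cKO. Values within classes of score stand in the report. No paired analysis was possible because each group has 1 list and no values per library, and for the same reason no replicate could be left out. Depth is unknown, so a site missing from a list was not detected there and cannot be called closed.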
